A study of Mus musculus with 6 samples.

Results

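Interferon-stimulated genes and the genes that control them were followed in mouse B16F10 melanoma cells with and without fenofibrate, a lipid-lowering fibrate. The 44 members are a list of gene symbols drawn up with earlier results of these data known, and all 44 were found among the 54838 genes of the deposited table. B16F10 is an established pigmented melanoma line from the C57BL/6 mouse. It was sequenced as mRNA-enriched RNA from 3 control libraries and 3 libraries of cells given 50 µM fenofibrate, and the treatment time and the vehicle of the controls are not given in the sources used here. The cell line label counts upward from B16F10 in the first control to B16F15 in the last fenofibrate library. If that label is meant as written, cell line and treatment cannot be told apart.

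Interferons are secreted proteins that warn cells of viral infection. Type I interferons bind the receptor pair Ifnar1 and Ifnar2, which activates JAK kinases and a complex called ISGF3 that contains Stat2 and Irf9. This complex binds the interferon-stimulated response element (ISRE) in promoters and raises antiviral effector genes. Type II interferon binds Ifngr1 and Ifngr2 and acts on gamma-activated sites (GAS), with Irf1 as an early target. Many melanoma cells keep a low level of these genes without added interferon.

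The libraries held 13540038 to 14710856 counts, so a gene with no count could be present at up to 0.204 to 0.222 CPM (counts scaled to the size of the library), the level of 3 counts, which covers counting error only. Melanocytic markers were abundant and summed to 22220 to 23650 CPM in control and 27200 to 28790 CPM with fenofibrate. Of the 8, 6 were called higher, from 1.11-fold for Mlana to 2.27-fold for Mitf, where 19.5% of all genes tested were called higher. Of 15 leukocyte markers, 7 had no count in any library, among them Adgre1, Itgam, Cd3e and Siglech. The sum of the 15 was 2.13 to 3.41 CPM in control and 4.18 to 7.02 CPM with fenofibrate. Most of it was Cd68, a lysosomal macrophage marker gene and the only one of the 15 tested, with 28, 47 and 26 counts in control and 82, 45 and 63 with fenofibrate, which was called higher (1.9-fold, edgeR adjusted p = 0.0489) with overlapping groups. Ptprc, which encodes the pan-leukocyte protein CD45, had 0 counts in each control and 6, 10 and 8 with fenofibrate. Fibroblast, endothelial and keratinocyte markers summed to at most 3.53 CPM in any library. The part of these levels in the results below was not tested, and in bulk RNA fewer cells of a type and less RNA per cell cannot be told apart.

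Most interferon genes that changed were lower with fenofibrate. Of the 43 members tested, 22 fell and 3 rose, and 18 were not called. Among all 13629 genes tested, 39.1% were called, 19.5% lower and 19.5% higher, so the members were called lower in 51.2% and higher in 6.98% against that background. The median log2 fold change of the members was -0.25, a median level of 0.842 of control, and that of all genes tested was 0.00. The falls were modest, with a median of 1.43-fold and a range from 1.16-fold to 2.43-fold, and 10 of the 22 reached 1.5-fold. Called or not, 25 of the 43 members had every fenofibrate library under every control, as did 26.9% of all genes, and 4 had every fenofibrate library above every control, as did 26.4% of all genes. A gene was called where edgeR's quasi-likelihood test gave p of 0.05 or less after Benjamini-Hochberg adjustment across the whole table. Levels below are CPM normalised for library composition (TMM), with the 3 control libraries and then the 3 fenofibrate libraries in replicate order. Zbp1, a sensor of Z-form nucleic acid, had 3 counts in each control and 5, 2 and 2 with fenofibrate and was not tested.

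**Figure D1:**
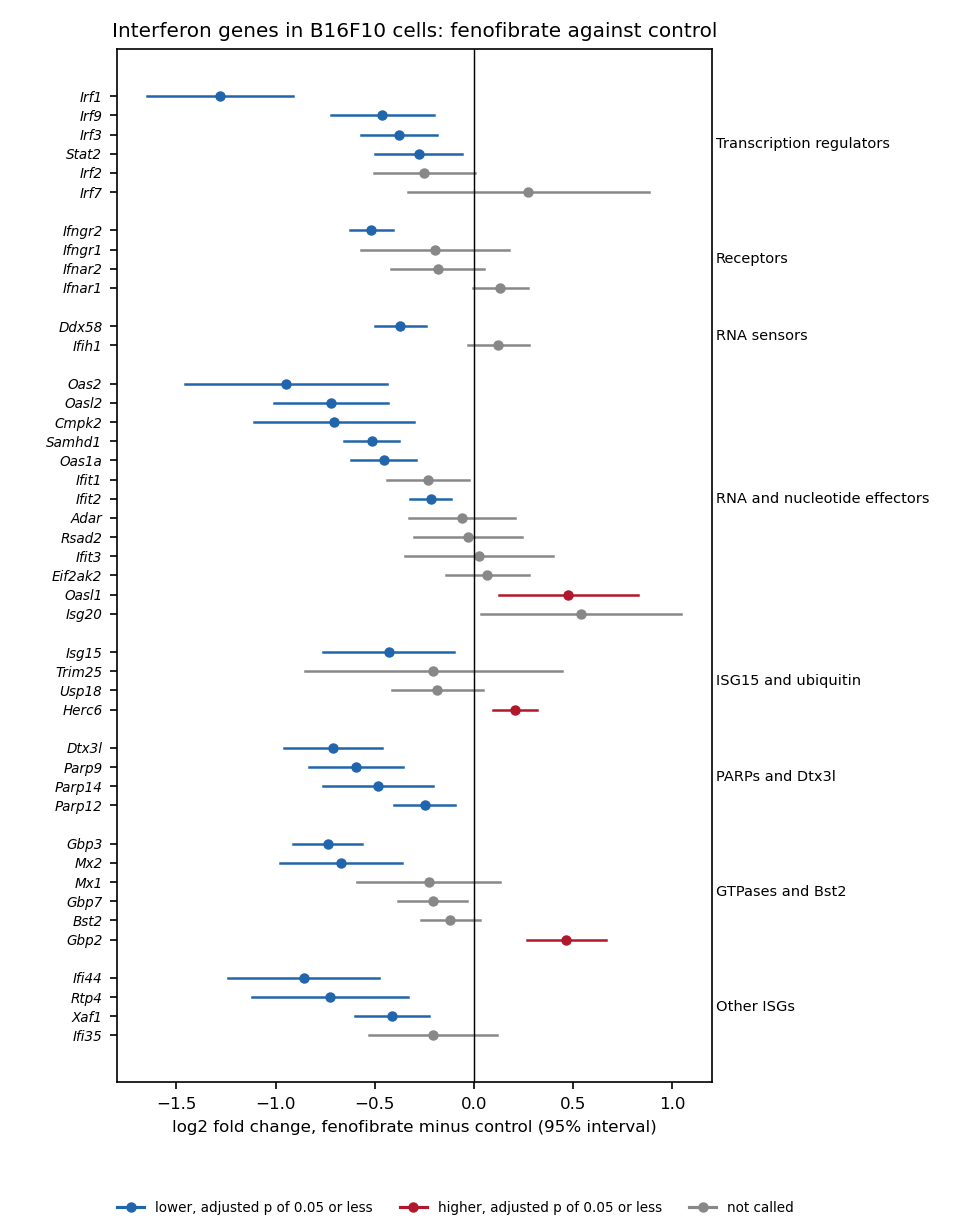
Log2 fold change of each of the 43 member genes tested (fenofibrate minus control, points) with its 95% interval (lines), grouped by role, from 3 libraries per group. Blue genes were called lower, red genes higher and grey genes were not called; 22 of the 43 are blue and Irf1 lies farthest to the left.

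Of the 6 transcription regulators, 4 were called lower and 0 higher, where 19.5% of all genes tested were called in each direction. Irf1, which activates interferon and antigen presentation genes, changed most of all members. Its normalised level was 13.3, 18.9 and 17.1 CPM in control and 5.96, 6.8 and 7.5 CPM with fenofibrate. The highest fenofibrate library was thus under the lowest control, and the fall was 2.43-fold (log2 fold change -1.28 ± 0.16 SE, 95% interval -1.65 to -0.91, edgeR adjusted p = 0.00073). Irf9, the DNA-binding part of ISGF3, stood at 69.3, 74.5 and 67.7 CPM and fell to 48.8, 60.4 and 44.4 CPM (1.38-fold lower, edgeR adjusted p = 0.0139). Irf3, which is activated by viral RNA sensing and induces type I interferon, went from 34.2, 32.3 and 37.5 CPM to 26.2, 28.3 and 25.6 CPM (1.3-fold lower, edgeR adjusted p = 0.00918). Both genes overlap another annotated gene that was also lower, Rnf31 beside Irf9 (log2 fold change -0.39) and Bcl2l12 beside Irf3 (-0.56). With no strand stated for the libraries, reads from the bases that each pair shares cannot be told apart. How large that part is was not measured.

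Stat2, a subunit of ISGF3, stood at 36.2, 33.1 and 38.1 CPM in control and at 32.8, 28.3 and 27.4 CPM with fenofibrate. The groups did not overlap, but the gap between them was narrow, and the call was only just made (1.21-fold lower, edgeR adjusted p = 0.0485). It was lost in 4 of the 6 fits that left out a library, without control replicate 1 (adjusted p = 0.115), control replicate 3 (0.135), fenofibrate replicate 2 (0.127) or fenofibrate replicate 3 (0.127), and also with DESeq2 (0.0626) and without the filter on low counts (0.0857). Irf2, which competes with Irf1 for the same sites, had 19.8, 18.6 and 23.9 CPM against 17.6, 18.1 and 16.7 CPM and was not called (log2 fold change -0.25, adjusted p = 0.108). Irf7, the amplifier of type I interferon production, was scarce. It had 5.98, 5.3 and 6.24 CPM in control and 7.85, 9.07 and 4.31 CPM with fenofibrate, so that the last library was under every control and the other two above them. It was not called (log2 fold change 0.27, 95% interval -0.33 to 0.88, adjusted p = 0.437), and without fenofibrate replicate 3 it was called higher at a log2 fold change of 0.54 (adjusted p = 0.0348). Irf7 overlaps Phrf1, which had 2297 counts over the controls.

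Of the 4 receptor genes, Ifngr2, the signalling chain for type II interferon, was the one that changed. It had 149, 146 and 145 CPM in control and 97.6, 104 and 107 CPM with fenofibrate. These are among the tightest values of the members, and the fall was 1.43-fold (log2 fold change -0.52 ± 0.05 SE, 95% interval -0.63 to -0.41, edgeR adjusted p = 0.000197). Its partner Ifngr1, the ligand-binding chain, had 24.8, 21.9 and 15.7 CPM against 18.6, 18.7 and 17.1 CPM. The last control was the lowest of the 6 libraries, and Ifngr1 was not called (log2 fold change -0.20, adjusted p = 0.364). Without that control replicate 3 it was called lower, at a log2 fold change of -0.36 (adjusted p = 0.0317). The type I receptor chains were not called. Ifnar1 had 78.4, 74.5 and 79.3 CPM in control and 79.9, 89.7 and 85 CPM with fenofibrate, with the latter all higher by a small margin. Ifnar2 had 34.6, 33.8 and 33.5 CPM against 33.7, 25.7 and 30.5 CPM, with overlapping groups. It overlaps Gm21970, which had 764 counts over the 6 libraries, and reads of shared bases cannot be told apart. The log2 fold change was 0.13 for Ifnar1 (95% interval -0.01 to 0.27) and -0.18 for Ifnar2 (-0.42 to 0.05), so that for either gene a change beyond 1.5-fold lies outside the interval. Ifngr2 lies 39.6 kb from Ifnar1 on chromosome 16, and whether the neighbours' changes differ was not tested.

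Promoter sequences are shown for members from the roles described here, to set the ISRE and GAS letters beside the values. A match describes the sequence and is not a measured binding site. A window of 250 bases before to 50 bases after each RefSeq start site (GRCm38.p6) was at hand for 36 of the 44 members, with more than 1 window for 6 of them. The ISRE core was searched as GAAA, any 2 bases, then GAAA, and the GAS as TTC, any 3 bases, then GAA, on both strands. The GAS letters read the same on both strands, and matches of the 2 motifs share bases in the promoter of Bst2. The ISRE core was in the windows of 14 of the 36 members (38.9%) and of 3.99% of all genes with a window. The GAS letters were in 13 of the 36 (36.1%) and in 9.55% of all genes. In the sequences, written 5′ to 3′ on the strand of the gene, capitals mark every match of the motif named.
Irf1, GAS (chr11:53769909-53769947, plus strand): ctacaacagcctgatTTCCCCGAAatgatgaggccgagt
Stat2, ISRE core (chr10:128270261-128270300, plus strand): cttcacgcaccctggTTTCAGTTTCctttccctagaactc
Isg15, ISRE core (chr4:156200860-156200911, minus strand): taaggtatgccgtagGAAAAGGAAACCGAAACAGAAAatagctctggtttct
Gbp3, ISRE core (chr3:142559984-142560029, plus strand): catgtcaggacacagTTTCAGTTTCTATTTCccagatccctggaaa
Gbp2, ISRE core (chr3:142620589-142620628, plus strand): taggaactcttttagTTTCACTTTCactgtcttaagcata
Gbp7, ISRE core (chr3:142530268-142530307, plus strand): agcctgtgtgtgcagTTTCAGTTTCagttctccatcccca
Ifit1, ISRE core (chr19:34640770-34640828, plus strand): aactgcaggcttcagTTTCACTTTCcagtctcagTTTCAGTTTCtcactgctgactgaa
Ifit3, ISRE core (chr19:34583358-34583431, plus strand): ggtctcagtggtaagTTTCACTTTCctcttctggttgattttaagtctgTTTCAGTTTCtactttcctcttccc
Bst2, ISRE core (chr8:71537572-71537617, minus strand): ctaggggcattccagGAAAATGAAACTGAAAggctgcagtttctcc
Rsad2, ISRE core (chr12:26456548-26456587, minus strand): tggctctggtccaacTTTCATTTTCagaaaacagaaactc
Isg15 holds 3 overlapping ISRE core matches, between 78 and 57 bases before the start site, and Ifit1 and Ifit3 hold 2 separate ones each. Of members with a window, the core was in 5 of 17 called lower, in 1 of 3 called higher and in 8 of 16 that were not called. The GAS letters were in 4 of 17 called lower, in 0 of 3 called higher and in 9 of 16 that were not called. For neither motif was the difference between these shares tested.

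**Figure D2:**
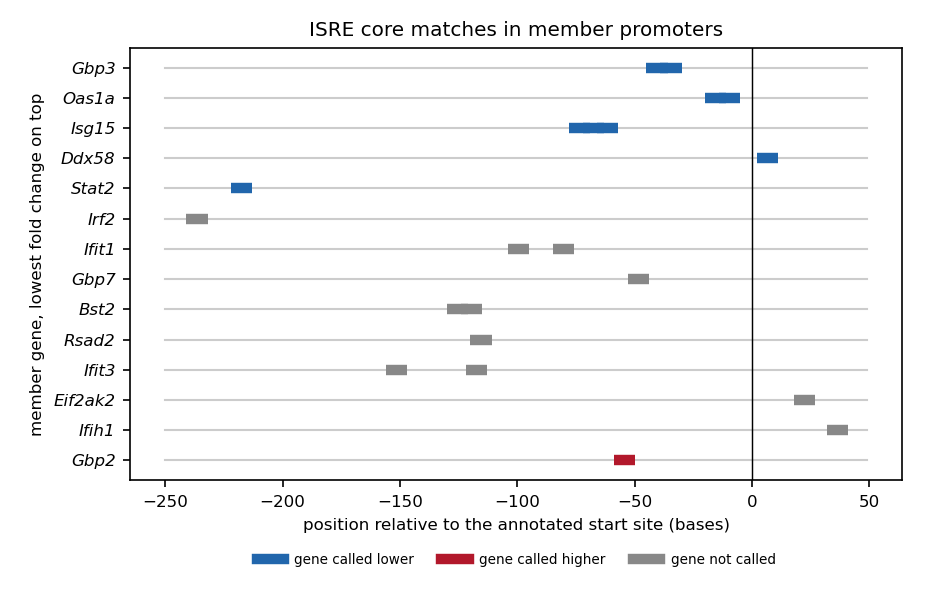
Position of each ISRE core match in the promoter window of the 14 member genes that hold one, in bases from the annotated start site (0), with grey lines for the window searched. Matches are blue where the gene was called lower (5 genes), red where higher (1 gene) and grey where not called (8 genes).

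Sensors of viral RNA in the cytosol differed in their calls. Ddx58 (RIG-I), which detects RNA with an uncapped end, had 282, 267 and 271 CPM in control and 218, 222 and 195 CPM with fenofibrate. Every fenofibrate library was clearly lower (1.29-fold, log2 fold change -0.37 ± 0.06 SE, edgeR adjusted p = 0.00181). Ifih1 (MDA5), which detects long double-stranded RNA, had 79.2, 77.2 and 80.5 CPM against 86.5, 92.6 and 79 CPM, with overlapping groups and no call (log2 fold change 0.12, 95% interval -0.03 to 0.28).

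Active enzymes of the oligoadenylate synthetase family lead to activation of RNase L when they meet double-stranded RNA. Of the 4 members from this family, Oas2, Oas1a and Oasl2 fell and Oasl1 rose. Oas2 had 75.6, 69.5 and 46 CPM in control and 36.5, 38.2 and 24.6 CPM with fenofibrate. Its replicates were wide apart in both groups, with the third of each the lowest, but the groups did not overlap (1.93-fold lower, edgeR adjusted p = 0.0117). Oas1a went from 65.4, 60.4 and 62.4 CPM to 45.9, 49 and 42.4 CPM (1.37-fold lower, adjusted p = 0.00201). It belongs to a family of close copies, and counts can be split between them. The copies Oas1b and Oas1g fell as well, with log2 fold changes of -0.74 and -0.49, while Oas1c was not called (0.21, edgeR adjusted p = 0.228) and had every fenofibrate library above every control. Oasl2, an oligoadenylate synthetase-like gene, fell from 32.7, 30.4 and 34.2 CPM to 21.8, 21.2 and 16 CPM (1.65-fold, adjusted p = 0.00324). Its neighbour Oasl1, 11 kb away on chromosome 5 and known in the mouse to restrain Irf7 translation, went the other way. It had 4.61, 4.32 and 5.73 CPM in control and 7.17, 6.37 and 6.87 CPM with fenofibrate (1.39-fold higher, edgeR adjusted p = 0.0399). That call was lost in 5 of the 6 fits that left out a library, all but the one without control replicate 3 (adjusted p = 0.0617 to 0.117), with DESeq2 (0.126) and without the filter on low counts (0.0596).

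The Ifit genes, whose products bind foreign RNA and block its translation, form a cluster on chromosome 19, and their changes were small. Ifit2 had 124, 128 and 127 CPM in control and 106, 113 and 107 CPM with fenofibrate. The tight replicates made this small difference a call (1.16-fold lower, edgeR adjusted p = 0.00699). Ifit1 had 125, 130.5 and 141 CPM against 112, 127 and 99.9 CPM, with overlapping groups (log2 fold change -0.23, adjusted p = 0.0778). Without fenofibrate replicate 2 it was called lower (log2 fold change -0.32, adjusted p = 0.0196). Ifit3 had 61.5, 58.1 and 68.8 CPM against 69.8, 74.6 and 47.4 CPM, a spread on both sides of the controls (log2 fold change 0.03, 95% interval -0.35 to 0.40). Its sign reversed without control replicate 2 (-0.03), fenofibrate replicate 1 (-0.04) or fenofibrate replicate 2 (-0.10). Ifit3 has a close copy, Ifit3b, which was not called either (-0.10).

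Enzymes that act on nucleotides and RNA were lower or not called. Samhd1, which breaks down deoxynucleotides, had 81.6, 81.5 and 80 CPM in control and 57.8, 59.3 and 53 CPM with fenofibrate. Both groups were tight and well apart (1.43-fold lower, edgeR adjusted p = 0.000499). Cmpk2, a mitochondrial nucleotide kinase gene, fell from 35.4, 29.4 and 35.2 CPM to 18.6, 26.3 and 16.4 CPM (1.63-fold, edgeR adjusted p = 0.0149). Without fenofibrate replicate 1 its adjusted p was 0.0532. Rsad2 (viperin), which makes a chain-terminating nucleotide, lies 12.8 kb from Cmpk2 on chromosome 12 and is read in the opposite direction. It had 114, 107 and 125 CPM against 111, 133 and 95.7 CPM, with the groups overlapping fully (log2 fold change -0.03, 95% interval -0.30 to 0.24). The double-stranded RNA kinase gene Eif2ak2 (PKR) and the RNA-editing enzyme gene Adar were not called, with log2 fold changes of 0.07 and -0.06. Adar overlaps Chrnb2, which had 1882 counts over the 6 libraries. Isg20, an exonuclease gene, had 3.46, 4.74 and 3.77 CPM against 6.95, 6.16 and 4.37 CPM and was not called (log2 fold change 0.54, adjusted p = 0.0844), but it was called higher without fenofibrate replicate 3 (adjusted p = 0.0297).

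Isg15 encodes a ubiquitin-like protein that is attached to other proteins during the response. It had 80.8, 75.7 and 96.1 CPM in control and 62.1, 74.2 and 51.2 CPM with fenofibrate. The highest fenofibrate library came close to the lowest control, and the call was made by a small margin (1.35-fold lower, edgeR adjusted p = 0.0459). It was lost without control replicate 1 (adjusted p = 0.079), control replicate 3 (0.1355), fenofibrate replicate 1 (0.1098) or fenofibrate replicate 3 (0.1029), and without the filter on low counts (0.0936). Usp18, which removes Isg15 and dampens the type I receptor, was not called (log2 fold change -0.18, adjusted p = 0.178). Herc6, the main Isg15 ligase of the mouse, rose slightly, from 127, 135 and 139 CPM to 152, 152 and 158 CPM (1.15-fold, edgeR adjusted p = 0.0113). Trim25, a ubiquitin ligase that acts on RIG-I, was uneven within the controls, at 139, 135 and 62 CPM against 90.4, 113 and 87.9 CPM (adjusted p = 0.594). Without control replicate 3, the low one, it was called lower at a log2 fold change of -0.50 (adjusted p = 0.0172).

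All 4 genes of the PARP and Dtx3l group fell, where 19.5% of all genes tested were called lower. Parp9 and Dtx3l encode partners in an ADP-ribosyl and ubiquitin transferase complex, and their genes overlap by 682 bases, head to head, on chromosome 16. Dtx3l had 68.1, 69.7 and 67.2 CPM in control and 46.3, 44.5 and 34.5 CPM with fenofibrate (1.64-fold lower, edgeR adjusted p = 0.00179). Parp9 had 93.6, 71.5 and 89.5 CPM against 54.1, 58.9 and 55.5 CPM (1.51-fold lower, adjusted p = 0.00316). Because of the overlap, reads of the pair cannot be fully told apart. Parp14, 55.0 kb from Dtx3l and a regulator of STAT signalling, went from 95.5, 102 and 96.8 CPM to 74.7, 79.5 and 56.3 CPM (1.4-fold lower, edgeR adjusted p = 0.0148). Parp12, which acts on translation and viral proteins, went from 207, 202 and 212 CPM to 176, 189 and 157 CPM (1.19-fold lower, edgeR adjusted p = 0.0213). The Parp12 call was lost without control replicate 1 (adjusted p = 0.0561), control replicate 3 (0.0625) or fenofibrate replicate 1 (0.0527).

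Among guanylate-binding proteins, GTPases that attack the vacuoles of pathogens, neighbours on chromosome 3 changed in opposite directions. Gbp3 had 62, 57.8 and 62.8 CPM in control and 34.4, 39.9 and 35.2 CPM with fenofibrate (1.67-fold lower, log2 fold change -0.74 ± 0.07 SE, edgeR adjusted p = 0.000297). Gbp2, 47.4 kb away, had 36.5, 35.8 and 39.7 CPM against 54.6, 54.1 and 45.8 CPM (1.38-fold higher, log2 fold change 0.47 ± 0.09 SE, edgeR adjusted p = 0.00433). In neither gene did the groups overlap, and the 95% intervals lie on opposite sides of 0, from -0.91 to -0.56 and from 0.27 to 0.66. Gbp7, 9.9 kb on the other side of Gbp3, missed the threshold (log2 fold change -0.21, adjusted p = 0.0581) although its groups did not overlap, and it was called lower without fenofibrate replicate 2 (adjusted p = 0.0394). As printed above, all 3 genes have a promoter window with the ISRE core within 60 bases of its start site. A further window of Gbp3 held no match.

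Of the other membrane and GTPase genes, Mx2, a dynamin-like GTPase gene that the annotation lists as a polymorphic pseudogene, fell from 22.8, 25.5 and 25.6 CPM to 15.1, 18.4 and 12.9 CPM (1.59-fold, edgeR adjusted p = 0.00591). Mx1, which is defective in the C57BL/6 strain, was not called (log2 fold change -0.23, adjusted p = 0.28). Bst2 (tetherin), which holds budding virus at the cell surface, had 309.5, 319 and 354 CPM against 295, 322 and 289 CPM and was not called (log2 fold change -0.12, 95% interval -0.27 to 0.03). Among the remaining members, Ifi44 fell from 13.5, 14.4 and 16.5 CPM to 7.02, 10.2 and 7.22 CPM (1.81-fold, adjusted p = 0.00511). Rtp4, a receptor transporter gene, was 1.65-fold lower (32.8, 32.1 and 30.3 CPM to 19.4, 23.9 and 14.2 CPM, adjusted p = 0.0118). It overlaps Masp1, which was higher (log2 fold change 0.73). Xaf1, which promotes apoptosis, went from 50.6, 46.6 and 50.3 CPM to 38.1, 39.5 and 33.3 CPM (1.33-fold lower, edgeR adjusted p = 0.00554), and Ifi35 was not called (log2 fold change -0.21, adjusted p = 0.277).

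The fenofibrate libraries differed in how far the members fell. Against the mean of the controls, the median log2 difference over the 43 tested members was -0.24 in fenofibrate replicate 1, -0.18 in replicate 2 and -0.43 in replicate 3, and between -0.03 and 0.04 in the 3 controls. Fenofibrate replicate 2 held the highest of the 3 fenofibrate values in 76.7% of the members and in 32.3% of all genes tested. Replicate 3 held the lowest in 76.7% of the members and in 34.9% of all genes. Without replicate 2, 23 members were called lower and the median was -0.32, and without replicate 3, 20 were called lower and the median was -0.21. Of all genes tested, 15.8% were called lower without replicate 2 and 17.1% without replicate 3. Scaled to total counts only, without TMM, the sum over all 44 members was 3406 to 3445 CPM in control. In the fenofibrate libraries that sum was 3052 CPM or less. The TMM factors were 1.02 in each control and 0.98 in each fenofibrate library, so TMM scaling would narrow that gap.

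**Figure D3:**
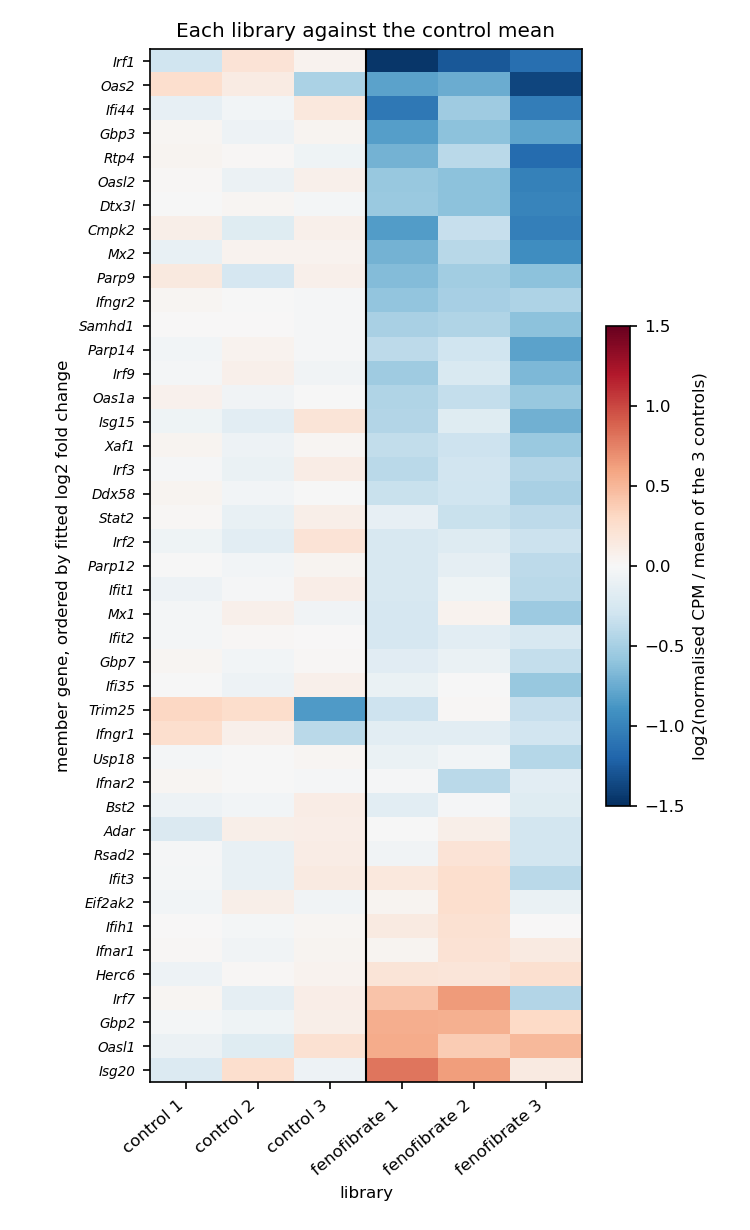
Heat map of the 43 tested member genes (rows, ordered by fitted log2 fold change) in the 6 libraries (columns), as log2 of the normalised CPM over the mean of the 3 controls. Blue is lower and red higher; the upper rows are blue in all 3 fenofibrate libraries, in most rows palest in fenofibrate 2 and darkest in fenofibrate 3, and Trim25 and Oas2 are low in control 3.

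Levels were compared between genes by the deposited FPKM, which is per length of the gene. The members spanned a wide range in control, from Zbp1 at 0.0451 ± 0.000891 to Bst2 at 296 ± 20.0 FPKM (mean ± SD, n = 3). Isg15 followed at 113 ± 13.9 FPKM, then Ifit1 at 50.7 ± 3.0 and Parp12 at 49.6 ± 1.11, which did not differ beyond their spread. Ifit3 stood at 36.6 ± 3.09 FPKM and Oas1a at 33.9 ± 1.42 FPKM, also within their spread. In all, 20 of the 44 were at 10 FPKM or more in control and 3 were under 1 FPKM, namely Zbp1, Irf7 and Oasl1. Among the 6 transcription regulators Irf9 was highest, at 7.75 ± 0.400 FPKM, and Irf1 stood at 2.90 ± 0.498 FPKM. The length behind the FPKM was 1 to 2.71 times the merged exon length of the members. The largest ratios were those of Irf7 (2.71), Irf3 (2.44) and Oasl1 (2.15), so these genes are understated. The order of the genes given here and the counts of members at 10 FPKM or more and under 1 FPKM rest on that length.

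**Figure D4:**
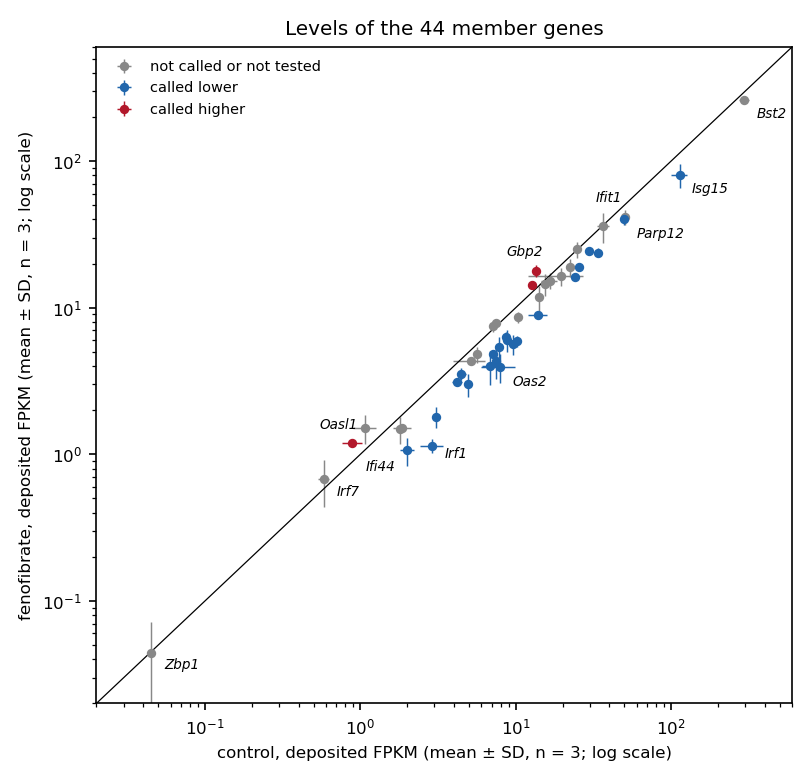
Deposited FPKM of the 44 member genes in control (horizontal) and with fenofibrate (vertical), both on log scales, as means with SD from 3 libraries each; the line marks equal levels. Called falls (blue) lie under the line from Ifi44 and Irf1 near 1 to 3 FPKM up to Isg15 at 113 FPKM in control, while Bst2, the most abundant member, is close to it.

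The rest of the pathway was read from 5 further lists with 150 genes, of which 149 were found and 107 tested. Of these, 37 fell, 10 rose and 60 were not called, with a median log2 fold change of -0.20. That is 34.6% lower and 9.35% higher, where 19.5% of all genes tested were called in each direction. Interferon ligand genes were at the limit of detection: of 15, 12 had no count in any library. Ifnb1 had 0, 0 and 2 counts in control and 2, 0 and 2 with fenofibrate. Among 62 other interferon-stimulated genes tested, 24 fell (38.7%) and 0 rose by edgeR or by DESeq2, with 1 higher at an unadjusted edgeR p under 0.05. Without control replicate 1, 1 gene of that list was called higher, and without fenofibrate replicate 3, 3 were. In these fits 15.3% and 17.4% of all genes were called higher. The largest falls were those of Slfn2, a growth-restraining schlafen gene (4.95-fold lower), Slfn8 (2.33-fold), the GTPase gene Tgtp2 (2.09-fold), the RNA helicase gene Mov10 (1.96-fold), Ifi47 (1.89-fold) and Cd274, which encodes the checkpoint ligand PD-L1 (1.78-fold), with adjusted p values from 7e-05 to 0.00259.

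**Figure D5:**
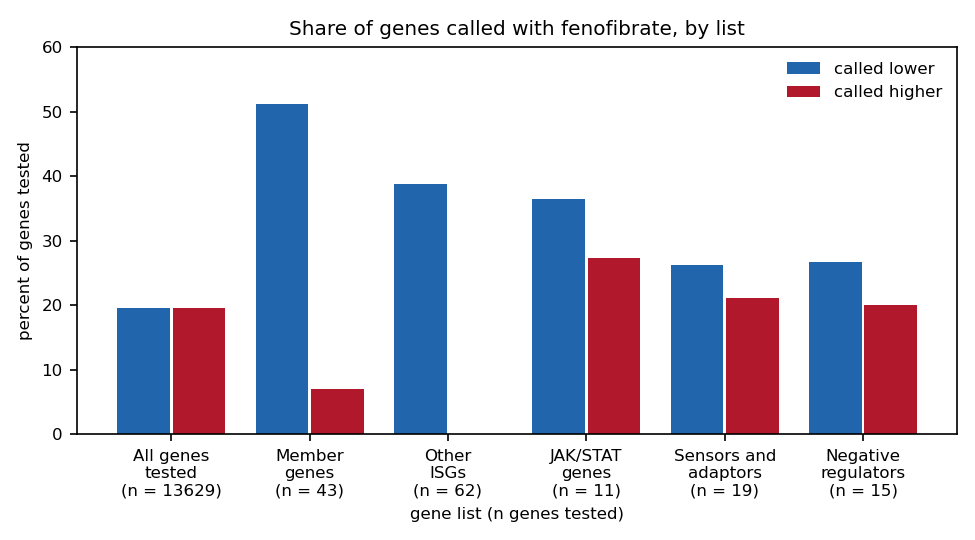
Percent of the tested genes called lower (blue bars) and higher (red bars) with fenofibrate, for all genes, the member genes and 4 further interferon lists, with the number tested under each. All genes split evenly at 19.5% each way, while the members stand at 51.2% lower and 6.98% higher and the other interferon-stimulated genes at 38.7% lower and 0% higher.

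Of 11 JAK and STAT pathway genes tested, 4 fell (36.4%) and 3 rose (27.3%), where 19.5% of all genes were called in each direction. Stat3, which carries cytokine signals other than those of ISGF3, had 54.8, 55.4 and 54 CPM in control and 104, 104 and 96 CPM with fenofibrate (1.85-fold higher, edgeR adjusted p = 3.26e-05). The kinase genes Tyk2 (1.24-fold) and Jak2 (1.18-fold, adjusted p = 0.0149, and 0.0533 without control replicate 2) rose, and Jak1 was not called (log2 fold change 0.08, adjusted p = 0.126). Stat5b (1.54-fold), Stat5a (1.19-fold, adjusted p = 0.0148, and 0.0548 without control replicate 1) and Il10rb (1.35-fold), a receptor chain shared with type III interferon, fell.

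Of 15 negative regulators tested, 4 fell (26.7%) and 3 rose (20%), near the 19.5% each way of all genes. Socs3, a feedback inhibitor that STAT3 induces, went from 8.14, 9.69 and 9.79 CPM to 3.02, 3.97 and 4.1 CPM (2.48-fold lower, edgeR adjusted p = 0.00073), while Socs1, at 0.865, 1.19 and 1.16 CPM against 0.83, 0.779 and 0.625 CPM, was not called (adjusted p = 0.194). The phosphatase gene Ptpn6 was 1.6-fold lower and the STAT inhibitor gene Pias3 1.38-fold higher. Ptpn1 and Ptpn11 were 1.12-fold and 1.09-fold higher, and these calls were lost in 6 and 5 of the 6 fits that left out a library (adjusted p = 0.0555 to 0.0899 and 0.0565 to 0.0963).

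Of 19 sensors, adaptors and IRF-related genes tested, 5 fell (26.3%) and 4 rose (21.1%), again near the background of 19.5% each way. Tmem173, which encodes the DNA-sensing adaptor STING, was 1.36-fold lower (edgeR adjusted p = 0.00046). The IRF2-binding corepressor genes split, with Irf2bp2 1.95-fold and Irf2bpl 1.59-fold higher and Irf2bp1 1.29-fold lower (adjusted p = 0.000151 to 0.00638). Ticam1, the adaptor of Tlr3, rose 1.33-fold, and Nlrc5, the activator of MHC class I genes, 1.29-fold. The Nlrc5 call was lost without control replicate 2 (adjusted p = 0.119) or 3 (0.1255) and without fenofibrate replicate 1 (0.131) or 2 (0.111).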

How the data were processed

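For each library the authors deposited a column of raw counts and a column of FPKM. Per the submitters' processing notes, the tools include StringTie 1.3.0 and HISAT2 2.0.4 and the build is GRCm39, with no role stated; the counting tool and strand setting are not given in the sources used here. Gene coordinates match GRCm38: GENCODE M21 lists 99.8% of the IDs, and 98.7% of those listed, with every member, share both ends. Groups come from the sample titles. Counts were tested in R 4.3.3 with edgeR 4.0.16 (filterByExpr, TMM, glmQLFit, glmQLFTest, no covariate), with Benjamini-Hochberg adjustment over 13629 genes. The SE is the log2 fold change over the square root of F. The script was tested on simulated data. Alternatives were DESeq2 1.42.0, RLE scaling, no filter, a replicate block and leaving out each library. Motif letters were searched in RefSeq promoter windows. Members, lists and alternatives were chosen with earlier results of these data known. Library values were given for regulators, receptors, members called at 1 FPKM or more and the 5 most abundant; from other lists, up to 6 called genes each, plus Jak1, Tyk2, Socs1 and Socs3, were named; a further gene that the rule names is not reported here. Normalised CPM stands in for the counts and FPKM that the rule asked for. No 2 replicates agreed within sampling noise (chi-square per gene 7.54 to 9.41).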

Additional observations from a re-analysis of the deposited data

How the results depend on the processing

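Under the 10 alternatives, the counts of calls over all genes, the members and the 5 further lists together moved by at most 1.5 times; among the other interferon-stimulated genes, those called higher went from 0 to 1 without control replicate 1 and to 3 without fenofibrate replicate 3. Members called lower numbered 21 with DESeq2, 22 with RLE scaling and 20 without a filter, and 19 to 23 when a library was left out. Of all genes, 14.7% were called lower with DESeq2, 19.4% with RLE scaling and 9.79% without a filter. When a library was left out, the share was 15.4% to 17.1%. Members called higher numbered 2 to 4 over all 10, where 9.79% to 19.7% of all genes were called higher. Of the 22 members called lower, 18 were called lower in all 10, the others being Stat2, Isg15, Parp12 and Cmpk2, and of the 3 called higher, Gbp2 and Herc6 were. The median member log2 fold change ran from -0.32 to -0.21 and kept its sign. The labels do not say whether same-numbered libraries were handled together. Deviations of same-numbered libraries correlated at 0.0278, 0.0127 and -0.0035, and those of the other pairs at -0.0239 to 0.0108. With 3 libraries per group these values cannot decide whether the libraries were paired. With the replicate number as a block, 20 members were called lower and 2 higher, where 16.5% of all genes were called lower and 16.8% higher. In that fit Stat2 (adjusted p = 0.0678), Isg15 (0.0927) and Oasl1 (0.0615) were no longer called. The sign of Ifit3, which was not called, reversed without control replicate 2 (-0.03), fenofibrate replicate 1 (-0.04) or fenofibrate replicate 2 (-0.10) and reached 0.20 without fenofibrate replicate 3. The causes were not tested. Depth limits Zbp1 and the interferon ligand genes.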

Other observations

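Other interferon-stimulated genes of the list gave further called falls. Ifitm3, which blocks virus entry at endosomes, was the most abundant gene of that list at 310 FPKM in control. It had 2759, 2780 and 3132 counts there against 1900, 2022 and 1677 with fenofibrate (log2 fold change -0.62, edgeR adjusted p = 0.00195). Other abundant genes of the list were not called, among them Ifitm2 (155 FPKM in control), Lgals3bp (101) and Ifi27 (98.9). Ifitm2 had every fenofibrate library above every control (log2 fold change 0.13, edgeR adjusted p = 0.113). The chemokine gene Cxcl10 had 1061, 1197 and 1207 counts against 635, 786 and 662 (log2 fold change -0.73, edgeR adjusted p = 0.00067). The immunity-related GTPase genes Irgm1 and Irgm2 had log2 fold changes of -0.59 and -0.55. Irgm2 overlaps Igtp, which was not called (log2 fold change -0.19, edgeR adjusted p = 0.244), and reads of shared bases cannot be told apart. The 4 genes with called falls, Ifitm3, Cxcl10, Irgm1 and Irgm2, were chosen after their values were seen.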
